A study of Mus musculus with 4 samples.

Results

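The genes described here are 10 large zinc finger genes that act in development: Tshz1, Tshz2, Tshz3, Zfp423, Zfp521, Zfp536, Zfp704, Zfhx3, Zfhx4 and Zeb2, out of 26031 annotated mouse genes. The study deposited 2 sets of 5 kb genome bins (mm9) in which the authors called 5-hydroxymethylcytosine (5hmC) different between cells knocked out for LSH and wild-type cells. There is 1 list for embryonic stem (ES) cells and 1 for mouse embryonic fibroblasts (MEFs). The groups were LSH knockout ES cells, wild-type ES cells, LSH knockout MEFs and wild-type MEFs, with 1 library each. A bin was assigned to a gene when it overlapped the gene body or the 5 kb upstream of its start. By this rule 71 distinct bins belonged to the 10 genes, 35 on the ES list and 37 on the MEF list, with 1 bin on both. The genes were chosen by their numbers of listed bins in these same lists, so the counts are a description and carry no test.

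5hmC is made when TET enzymes oxidise 5-methylcytosine, which in mammals lies mostly at CpG dinucleotides, and it is often found in the bodies and distal regulatory elements of active or developmentally poised genes. LSH, encoded by Hells, is a chromatin remodeler of the SNF2 family that is needed for normal DNA methylation in the mouse embryo. The 10 genes encode transcription factors with zinc fingers, and several of the genes are spread over long introns. Their products help to decide cell fate in the brain, the face, muscle and fat. ES cells are pluripotent, and MEFs are differentiated cells of embryonic connective tissue. The libraries were made from DNA fragments whose 5hmC had been tagged with a modified glucose and biotin and captured on streptavidin beads.

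Each list records where a bin lies and nothing more. Whether 5hmC rose or fell in knockout cells is not recorded, nor by how much, and a listed bin is therefore only called altered. The read depth is unknown and no value has a replicate error. Whether a difference between the lists reflects the cell types or the way each list was made cannot be told apart. Intervals in square brackets are exact 95% binomial intervals over bins, which are not replicates, and cover counting error only. In all, 8545 ES bins and 8972 MEF bins lay on chromosomes 1 to 19 and X. Of the 498 bins in the windows of the 10 genes, 7.03% were on the ES list and 7.43% on the MEF list, against 1.67% and 1.75% of all bins with sequence.

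Sequence is printed from 12 altered bins, on the plus strand of mm9, 5′ to 3′, with each CpG in capitals. Each is the stretch of 200 bases with the most CpG outside annotated exons, so it is richer in CpG than its bin. Where within a bin 5hmC differed is not recorded. The first set is the longest MEF stretch, 5 bins in the first intron of Tshz2. Its last bin is the only bin of the 10 genes on both lists.
Tshz2, chr2:169489440-169489639, MEF list: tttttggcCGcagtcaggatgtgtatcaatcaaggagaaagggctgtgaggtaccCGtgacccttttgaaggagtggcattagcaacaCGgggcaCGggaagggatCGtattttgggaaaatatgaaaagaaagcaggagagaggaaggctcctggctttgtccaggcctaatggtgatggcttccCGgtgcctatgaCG
Tshz2, chr2:169491271-169491470, MEF list: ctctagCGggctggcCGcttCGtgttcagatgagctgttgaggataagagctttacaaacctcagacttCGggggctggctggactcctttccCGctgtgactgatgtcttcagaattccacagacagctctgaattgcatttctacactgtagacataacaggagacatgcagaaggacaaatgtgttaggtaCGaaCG
Tshz2, chr2:169497245-169497444, MEF list: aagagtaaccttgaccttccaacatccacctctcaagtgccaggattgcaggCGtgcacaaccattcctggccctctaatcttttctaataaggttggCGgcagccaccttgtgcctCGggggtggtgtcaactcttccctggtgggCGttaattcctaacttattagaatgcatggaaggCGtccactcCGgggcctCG
Tshz2, chr2:169511887-169512086, MEF list: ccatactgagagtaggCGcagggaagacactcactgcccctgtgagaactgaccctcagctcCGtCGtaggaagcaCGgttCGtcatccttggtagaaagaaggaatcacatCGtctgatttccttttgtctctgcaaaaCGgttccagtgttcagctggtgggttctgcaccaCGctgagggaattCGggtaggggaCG
Tshz2, chr2:169528252-169528451, both lists: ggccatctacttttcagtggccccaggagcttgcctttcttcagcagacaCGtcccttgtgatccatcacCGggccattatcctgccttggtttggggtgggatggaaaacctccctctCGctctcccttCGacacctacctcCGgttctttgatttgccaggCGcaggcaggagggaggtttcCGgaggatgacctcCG
These Tshz2 windows held between 7 and 10 CpG each.

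The next set is the longest ES stretch, 5 bins in Zfp704, which is transcribed from the minus strand.
Zfp704, chr3:9451204-9451403, ES list: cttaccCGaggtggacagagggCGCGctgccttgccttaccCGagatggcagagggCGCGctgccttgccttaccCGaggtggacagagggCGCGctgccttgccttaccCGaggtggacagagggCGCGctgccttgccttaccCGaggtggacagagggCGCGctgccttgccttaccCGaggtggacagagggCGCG
Zfp704, chr3:9465153-9465352, ES list: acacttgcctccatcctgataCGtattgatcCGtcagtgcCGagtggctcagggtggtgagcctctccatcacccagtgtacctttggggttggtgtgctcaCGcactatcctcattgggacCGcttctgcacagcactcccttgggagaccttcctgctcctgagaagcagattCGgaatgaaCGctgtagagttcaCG
Zfp704, chr3:9472491-9472690, ES list: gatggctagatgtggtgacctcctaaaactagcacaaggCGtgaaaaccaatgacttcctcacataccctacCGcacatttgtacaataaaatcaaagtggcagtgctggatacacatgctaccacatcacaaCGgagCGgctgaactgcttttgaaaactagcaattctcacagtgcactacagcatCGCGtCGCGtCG
Zfp704, chr3:9475001-9475200, ES list: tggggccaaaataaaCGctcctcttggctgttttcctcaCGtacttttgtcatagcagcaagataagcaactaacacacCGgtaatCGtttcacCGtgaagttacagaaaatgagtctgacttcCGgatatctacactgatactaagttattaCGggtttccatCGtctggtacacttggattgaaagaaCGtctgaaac
Zfp704, chr3:9490594-9490793, ES list: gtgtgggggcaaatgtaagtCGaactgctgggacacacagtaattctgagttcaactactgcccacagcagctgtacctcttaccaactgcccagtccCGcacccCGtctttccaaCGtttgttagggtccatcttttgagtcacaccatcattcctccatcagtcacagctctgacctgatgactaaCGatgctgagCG
The bin from 9450001 stood out, with 18 CpG in its window and 167 in all its 5 kb. Its printed window is a short unit repeated in tandem, so those 18 CpG are copies of the same few sites. Whether the repeat affected the listing of this bin was not tested. The bins from 9475001 and 9490001 had 49 CpG each.

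The last set holds the listed bins nearest a gene start, the Zfp536 bin for the ES list and the Zfp423 bin for the MEF list. Both genes lie on the minus strand.
Zfp423, chr8:90482841-90483040, MEF list: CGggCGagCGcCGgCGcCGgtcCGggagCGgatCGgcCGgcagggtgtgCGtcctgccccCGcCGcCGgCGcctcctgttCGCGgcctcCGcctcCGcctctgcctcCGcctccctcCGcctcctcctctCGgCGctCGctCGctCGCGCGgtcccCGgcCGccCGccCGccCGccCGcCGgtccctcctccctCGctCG
Zfp536, chr7:38516069-38516268, ES list: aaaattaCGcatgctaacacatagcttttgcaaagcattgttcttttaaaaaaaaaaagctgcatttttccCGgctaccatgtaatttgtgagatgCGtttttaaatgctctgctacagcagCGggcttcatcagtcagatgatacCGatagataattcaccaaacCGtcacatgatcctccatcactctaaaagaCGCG
The Zfp423 window lies beside exon 1, in a CpG-rich start region, and held 37 CpG with a GC content of 83.0%. The Zfp536 window, in the first intron at 37.3 kb from the start, held 8 CpG with a GC content of 39.5%.

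Of the 10 genes, 8 had an ES bin and 8 had a MEF bin. Among the 3686 annotated genes of 70 kb or more, the length class that holds all 10, 44.0% had an ES bin and 40.8% had a MEF bin. Over all 26031 genes these shares were 19.8% and 14.1%. Both lists reached 6 of the 10 genes, against 24.5% of genes of 70 kb or more. Only the ES list reached Zfp536 and Zfhx4, and only the MEF list reached Tshz3 and Zeb2. Over the 2434.6 kb of the 10 genes and their upstream windows, there were 1.44 ES bins and 1.52 MEF bins per 100 kb, a difference of -0.0821 (ES minus MEF). Without Zfp423 the difference turned to 0.328 per 100 kb, and without Tshz2 it was -0.301, so the sum over the genes favoured neither list. Genes of 70 kb or more had 0.423 ES bins and 0.51 MEF bins per 100 kb, summed over the class.

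Gene by gene the lists parted. There were 5 genes with more ES than MEF bins (Tshz2, Zfp521, Zfp536, Zfp704 and Zfhx4) and 5 with fewer (Tshz1, Tshz3, Zfp423, Zfhx3 and Zeb2). The ES density ran from 0 to 3.19 bins per 100 kb with a median of 0.956, and the MEF density from 0 to 3.73 with a median of 1.62. Across all genes of 70 kb or more the median was 0 for both lists.

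**Figure D1:**
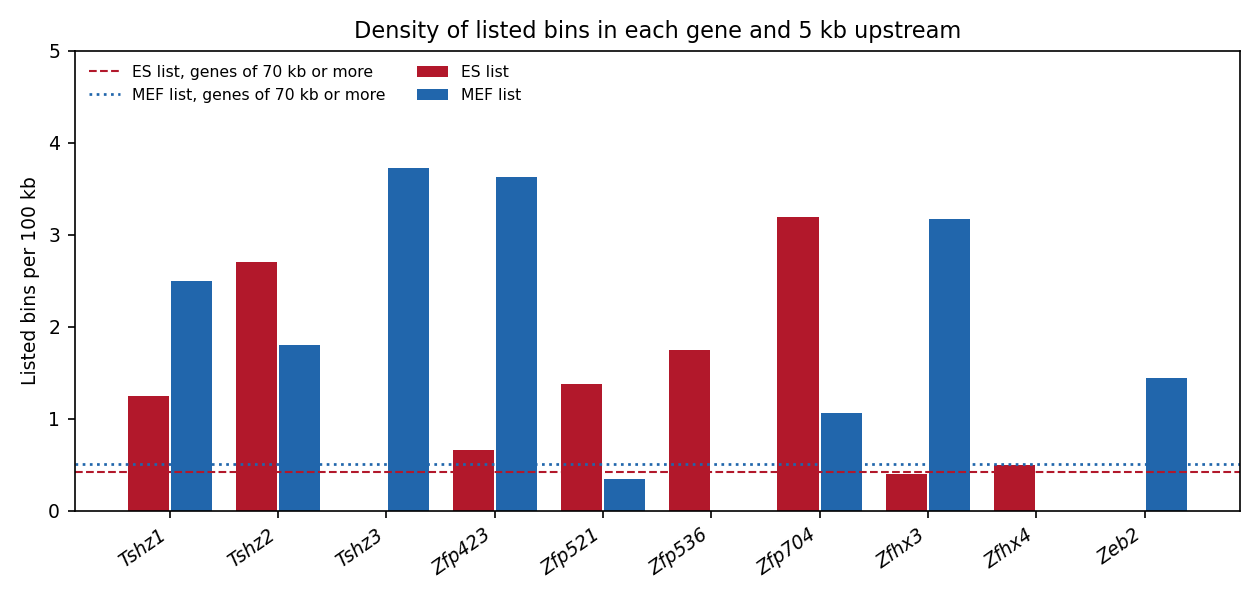
Listed bins per 100 kb (vertical axis) in each of the 10 genes with 5 kb upstream, ES list in red and MEF list in blue. The dashed and dotted lines are the values over all genes of 70 kb or more, 0.423 for the ES list and 0.51 for the MEF list. Zfp704 and Tshz2 are the tallest for the ES list, Tshz3, Zfp423 and Zfhx3 for the MEF list.

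The teashirt genes encode zinc finger homeodomain proteins related to the Drosophila patterning factor teashirt. Tshz2 (chromosome 2, 169458671 to 169897316, plus strand) spans 438646 bp and had 12 ES bins and 8 MEF bins. That is 13.3% of its 90 window bins for the ES list [7.08% to 22.1%] and 8.89% for the MEF list [3.92% to 16.8%]. The ES bins lay mostly beyond the midpoint of the gene, 9 of 12, and the MEF bins mostly before it, 7 of 8. The 5 ES bins farthest from the start, from 303.8 to 433.8 kb, lay past the end of the longest protein-coding transcript, in a part of the locus reached only by annotated transcripts that begin within the gene. With that transcript as the gene, Tshz2 had 7 ES bins and 7 MEF bins. The antisense lincRNA Gm16898 covers the same DNA as 6 of the ES bins and 7 of the MEF bins, so those bins belong to both loci.

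The bin of Tshz2 on both lists (chromosome 2, 169525001 to 169530000) lies in the first intron, 68.8 kb from the start, with 14 CpG per kb. An ES bin over the large exon 2 (169705001 to 169710000, 18.8 CpG per kb) and another over exon 3 (169735001 to 169740000) were the only Tshz2 bins over exons of its longest coding transcript. The ES bin from 169785001 also covers the start of another annotated gene, AY702102, and the farthest ES bin, from 169890001, overlaps the locus A630075F10Rik.

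Tshz1 and Tshz3 are shorter, at 74936 and 75340 bp, and each has a long first intron and a second exon with most of the coding sequence. Tshz1, which is needed in the mouse for the soft palate and for interneurons of the olfactory bulb, lies on chromosome 18 (84181019 to 84255954, minus strand). It had 1 ES bin, 58.5 kb from the start, and 2 MEF bins, 48.5 and 3.5 kb from the start. The MEF bin at 3.5 kb covers part of exon 1, with 28.6 CpG per kb. Tshz3, which acts in smooth muscle of the ureter and in cortical neurons, lies on chromosome 7 (37483137 to 37558476, plus strand). It had 0 ES bins and 3 MEF bins, at 9.4, 14.4 and 24.4 kb from the start, all in the first intron. This was the highest MEF density of the 10 genes, 3.73 per 100 kb, but it rests on 3 of 17 window bins [3.8% to 43.4%].

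Zfp423 and Zfp521 are paralogs whose proteins have long rows of zinc fingers and bind EBF transcription factors. Zfp423 also binds SMAD proteins, and in the mouse it is needed for the cerebellum and marks cells committed to fat. Zfp423 (chromosome 8, 90185709 to 90483494, minus strand) had 2 ES bins and 11 MEF bins. Its ES share was 3.28% of 61 window bins [0.4% to 11.3%] and its MEF share 18% [9.36% to 30.0%]. The MEF bins were spread over most of the gene, from 4.0 kb upstream of the start to 256.0 kb inside it, with 4 of 11 beyond the midpoint. The pair of ES bins touch each other at 216.0 and 221.0 kb, in the fifth intron, in a gap between MEF bins at 191.0 and 246.0 kb.

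At the start of Zfp423 a MEF bin (chromosome 8, 90480001 to 90485000) covers exon 1 and has 59.6 CpG per kb, the most of any altered bin in the 10 genes. The bin beside it upstream (90485001 to 90490000, 30.2 CpG per kb) was on the MEF list too, and was the only altered bin of the 10 genes outside any annotated gene. Other MEF bins of Zfp423 covered starts of shorter annotated transcripts, at 66.0 and 156.0 kb.

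Zfp521, known in the mouse for roles in blood precursors and neural differentiation, lies on chromosome 18 (13845522 to 14131242, minus strand). It had 4 ES bins, at 53.7, 153.7, 183.7 and 218.7 kb from the start, and 1 MEF bin at 83.7 kb. The paralogs are of like length, 297786 bp for Zfp423 and 285721 bp for Zfp521. In ES minus MEF density they differed in sign, with -2.97 per 100 kb at Zfp423 and 1.03 at Zfp521. The Zfp521 value rests on few bins. Its ES share was 6.78% of 59 window bins [1.88% to 16.5%] and its MEF share 1.69% [0.0429% to 9.09%], and these intervals overlap. Zfp521 is the poorer in CpG, with a median of 9.8 per kb over its window against 12.4 for Zfp423. Chromosome 8 had a listed share of 1.95% of bins for the ES list and 2.27% for the MEF list, and chromosome 18 had 1.66% and 1.47%.

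**Figure D2:**
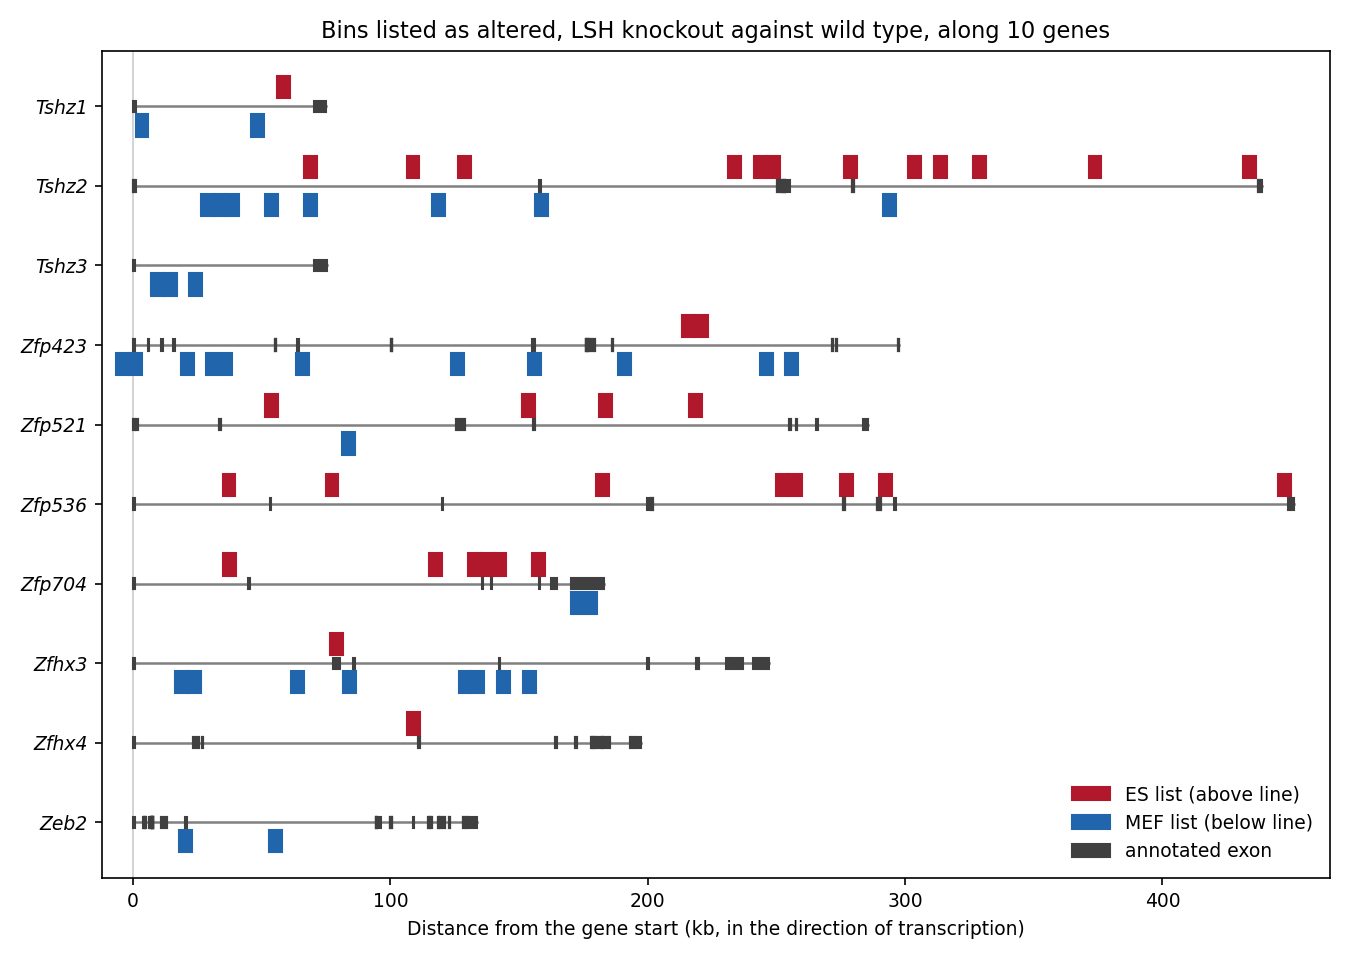
Altered bins along the 10 genes, with distance from the gene start in kb on the horizontal axis and annotated exons as dark boxes on each gene's line. ES bins (red) stand above the line and MEF bins (blue) below it, each drawn 5 kb wide. Zfp536 has 8 ES bins and 0 MEF bins, Tshz3 has 3 MEF bins and 0 ES bins, and in Tshz2 most MEF bins stand left of most ES bins.

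Zfp536 encodes a repressor that restrains neuronal differentiation. The gene (chromosome 7, 38103693 to 38554771, minus strand) is the longest of the 10, at 451079 bp, and had 8 ES bins and 0 MEF bins. The ES bins lay between 37.3 and 447.3 kb from the start and made up 8.7% of 92 window bins [3.83% to 16.4%]. A pair touched each other at 252.3 and 257.3 kb, and the bins at 277.3 and 292.3 kb covered exons 5 and 6 of the longest coding transcript. Of the 15 genes of 70 kb or more with at least 8 ES bins, Zfp536 was the single one with 0 MEF bins, 6.67% of them. This cut of 8 is the ES count of Zfp536 itself. With a cut of 1 ES bin, genes with 0 MEF bins were common. Of the 1623 genes of that length with an ES bin, 904 had a MEF bin too. On chromosome 7, 1.07% of bins were on the MEF list, fewer than the 1.75% over all chromosomes.

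Zfp704 (chromosome 3, 9427011 to 9610085, minus strand) had 6 ES bins and 2 MEF bins. Its ES share was the highest of the 10, 15.4% of 39 window bins [5.86% to 30.5%], and its ES density of 3.19 per 100 kb ranked 61 among 3686 genes of 70 kb or more. The longest ES stretch lay between 117.6 and 157.6 kb from the start and covered exons 3, 4 and 5. The MEF bins were a touching pair at 172.6 and 177.6 kb, over the last exons 8 and 9 and over the lincRNA C030034L19Rik on the other strand. The ES stretch and the MEF pair thus lay in neighbouring but separate parts of the gene.

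Zfhx3 and Zfhx4 encode giant proteins with both zinc fingers and homeodomains. Zfhx3, which in the mouse acts in the circadian clock neurons of the hypothalamus, lies on chromosome 8 (111238544 to 111485521, plus strand). It had 1 ES bin and 8 MEF bins, 1.92% [0.0487% to 10.3%] and 15.4% [6.88% to 28.1%] of 52 window bins. The ES bin (111315001 to 111320000) covers the large exon 2 and has 34.2 CpG per kb, the most of any ES bin in the 10 genes. The next bin (111320001 to 111325000, 20.8 CpG per kb), which covers exon 3, was on the MEF list and not on the ES list. Another 4 MEF bins formed a stretch from 129.0 to 154.0 kb, between exons 3 and 5 and over exon 4.

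Zfhx4 (chromosome 3, 5218554 to 5415855, plus strand) had 1 ES bin and 0 MEF bins. The ES bin (5325001 to 5330000) covers exon 4 and has 7.2 CpG per kb, the least of all altered bins in the 10 genes. The Zfhx4 window is also the poorest in CpG, with a median of 4.9 per kb against 17.7 for Zfhx3. Only 4 of its 42 bins belonged to the 3 CpG-richest of 10 equal groups of genome bins, against 52 of 52 at Zfhx3. The genes are 197302 and 246978 bp long.

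Zeb2, which represses E-cadherin, binds SMAD proteins and acts in neural crest and in the passage from epithelium to mesenchyme, lies on chromosome 2 (44839154 to 44972915, minus strand). It had 0 ES bins and 2 MEF bins, at 20.4 and 55.4 kb from the start. The bin at 20.4 kb (44950001 to 44955000) covers an exon of a shorter transcript. Its paralog Zeb1 (183608 bp) had 0 bins on either list.

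**Figure D3:**
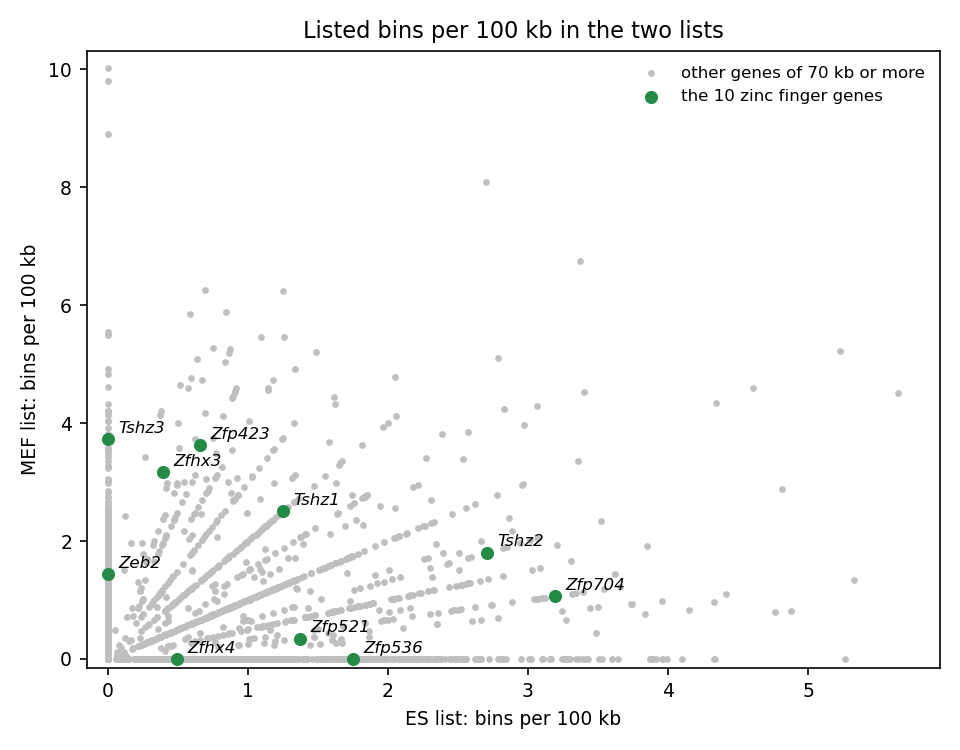
ES list (horizontal axis) against MEF list (vertical axis), in bins per 100 kb, for each of 3686 genes of 70 kb or more. The 10 zinc finger genes are green and named, other genes grey. Zfp704 at 3.19 and Tshz2 at 2.7 lie farthest right of the 10, and Tshz3 at 3.73 and Zfp423 at 3.63 lie highest, all among other genes with like or higher values.

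By density, Tshz2 ranked 105 for the ES list and 374 for the MEF list among the 3686 genes. Zfp423 ranked 1203 for the ES list and 78 for the MEF list, and Zfhx3 ranked 1449 and 106. Genes with 8 or more bins were 0.407% of the class for the ES list, which holds Tshz2 and Zfp536, and 1.71% for the MEF list, which holds Tshz2, Zfp423 and Zfhx3. Among the 63 genes with at least 8 MEF bins, 42.9% had 1 or 0 ES bins, as Zfhx3 does.

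The rule chose bins by gene and did not use their place within it. Along the genes the lists lay differently. Of the 35 ES bins, 26 lay beyond the midpoint of their gene, 74.3% [56.7% to 87.5%], and of the 37 MEF bins, 12 did, 32.4% [18% to 49.8%]. Of the 498 window bins, 245 lay beyond the midpoint. The median position was 63.6% along the gene for ES bins and 27.1% for MEF bins. Before the midpoint or upstream lay 25.7% of ES bins and 67.6% of MEF bins of the 10 genes, against 49.8% and 53.9% in all genes of 70 kb or more.

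Gene by gene the split rested on few bins in several cases. For the ES list 7 genes had more bins beyond the midpoint than before it, of which Tshz1 and Zfhx4 had 1 ES bin each and Zfp423 1 touching pair. Zfhx3, also with 1 ES bin, had more before it. For the MEF list 5 genes had more bins before the midpoint, of which Zfp521 had 1 MEF bin in all and Zeb2 had 2. Zfp704, with 1 touching pair, had more beyond it, and Tshz1 and Zfhx3 had as many on each side. Without Tshz2, 17 of 23 ES bins lay beyond the midpoint and 18 of 29 MEF bins before it. With positions taken along the longest protein-coding transcript, the shares were 72.4% of ES bins beyond and 66.7% of MEF bins before the midpoint. Bins of 1 gene share a locus and touching bins are not independent, and no test was made.

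**Figure D4:**
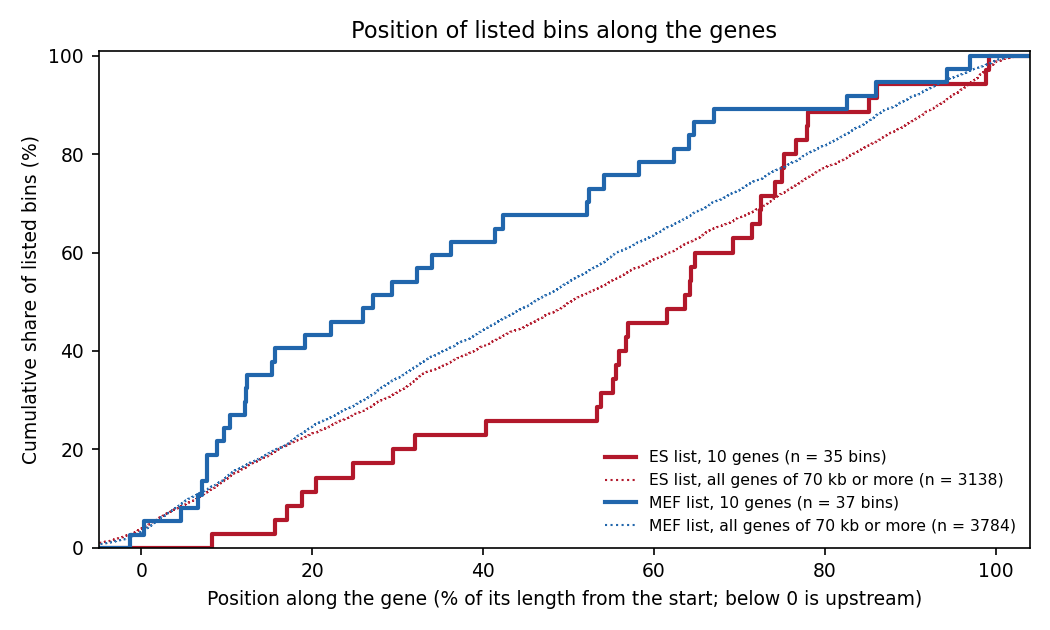
Cumulative share of listed bins (vertical axis, %) by position along the gene (horizontal axis, % of gene length from its start). Solid lines are the bins of the 10 genes, 35 for the ES list in red and 37 for the MEF list in blue, and dotted lines those of all genes of 70 kb or more. The ES line climbs late, with a median of 63.6%, the MEF line early, with a median of 27.1%, and the dotted lines stay near the diagonal.

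Close to gene starts the difference was of the same kind. Within 50 kb of the start or upstream lay 2 of 35 ES bins, 5.71% [0.7% to 19.2%], and 16 of 37 MEF bins, 43.2% [27.1% to 60.5%]. That zone holds 23.5% of the window bins of the 10 genes. In genes of 70 kb or more it holds 27.9% of the window bins, and it held 34.5% of ES bins and 33.2% of MEF bins. The 2 ES bins were those of Zfp536 at 37.3 kb and Zfp704 at 37.6 kb. The zone covers most of Tshz1 (74936 bp) and Tshz3 (75340 bp), whose 2 and 3 MEF bins all lay in it. It covers a small part of Tshz2 (438646 bp) and Zfp536 (451079 bp), which had 12 and 8 ES bins. How far the shares depend on which genes hold each list's bins was not tested. The first intron of the longest coding transcript held 9 of 35 ES bins and 19 of 37 MEF bins, and 25.9% of the window bins. The bin with the gene start itself was altered at 0 of 10 genes for the ES list and at 1 of 10 for the MEF list, Zfp423. Among genes of 70 kb or more the start bin was altered at 2.55% and 2.98%. These 10 start bins are rich in CpG, from 16.6 to 65.6 per kb, so the unlisted ones at Tshz3 (65.6) and Tshz1 (62.4) had more CpG than any altered bin of the 10 genes.

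By any overlap, 23 of the 35 ES bins were intron bins, 65.7% [47.8% to 80.9%], and 26 of the 37 MEF bins were, 70.3% [53.0% to 84.1%]. In genes of 70 kb or more the shares were 49.5% and 63.8%. Exon bins were 10 of 35 on the ES list, 28.6%, and 6 of 37 on the MEF list, 16.2%, near the 30.9% and 20.8% of genes of 70 kb or more. At the bin midpoint, which most exons are too short to reach, the order turned, with 1 of 35 ES bins (2.86%) and 3 of 37 MEF bins (8.11%) in an exon. Bins over an exon of the gene itself, promoter bins included, numbered 10 on each list. Promoter bins, within 1 kb of any annotated transcript start, were 2 of 35 and 4 of 37, or 5.71% and 10.8%, against 18.3% and 14.5% in the class.

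Most altered bins were CpG-rich, as were the genes other than Zfhx4, which has a median of 4.9 CpG per kb. The median was 14 CpG per kb in altered ES bins and 14.2 in altered MEF bins, against 12.4 and 12.2 in the unlisted bins of the same windows and 7.0 over the genome. The 3 CpG-richest of 10 equal groups of genome bins held 33 of 35 ES bins and 37 of 37 MEF bins, and 74.3% of all window bins. Of the 370 window bins in these groups, 8.92% were on the ES list [6.22% to 12.3%] and 10.0% on the MEF list [7.14% to 13.5%]. Over the genome 4.4% and 3.78% of such bins were listed.

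The counts were also set against the CpG content of the windows. If each window bin were listed at the genome-wide rate of its CpG group, the 10 genes would hold 18.9 ES bins and 16.0 MEF bins. The observed 35 and 37 were 1.85 and 2.31 times these numbers, as a description of genes chosen for their bins. With rates taken only over bins inside genes, they were 1.65 and 2.13 times the numbers so given. At Zfp704 the ES count was 4.11 times the CpG-based number, at Tshz2 2.77 times, at Zfp521 2.53 times and at Zfp536 2.36 times. At Zfhx4 it was 3.46 times, but from 1 ES bin against 0.289. At Zfp423 the MEF count was 5.11 times the CpG-based number, at Tshz3 4.92 times and at Zfhx3 4.03 times. At Tshz1 it was 3.03 times and at Tshz2 2.37 times. The Tshz3 and Tshz1 ratios rest on 3 and 2 MEF bins. The other list stayed under the CpG-based number in some of the same genes. Zfp423 had 2 ES bins where 2.45 was the CpG-based number, Zfhx3 had 1 where it was 2.8, and Zfp536 had 0 MEF bins where it was 2.96. With rates taken within the gene's own chromosome the last number was 1.71.

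**Figure D5:**
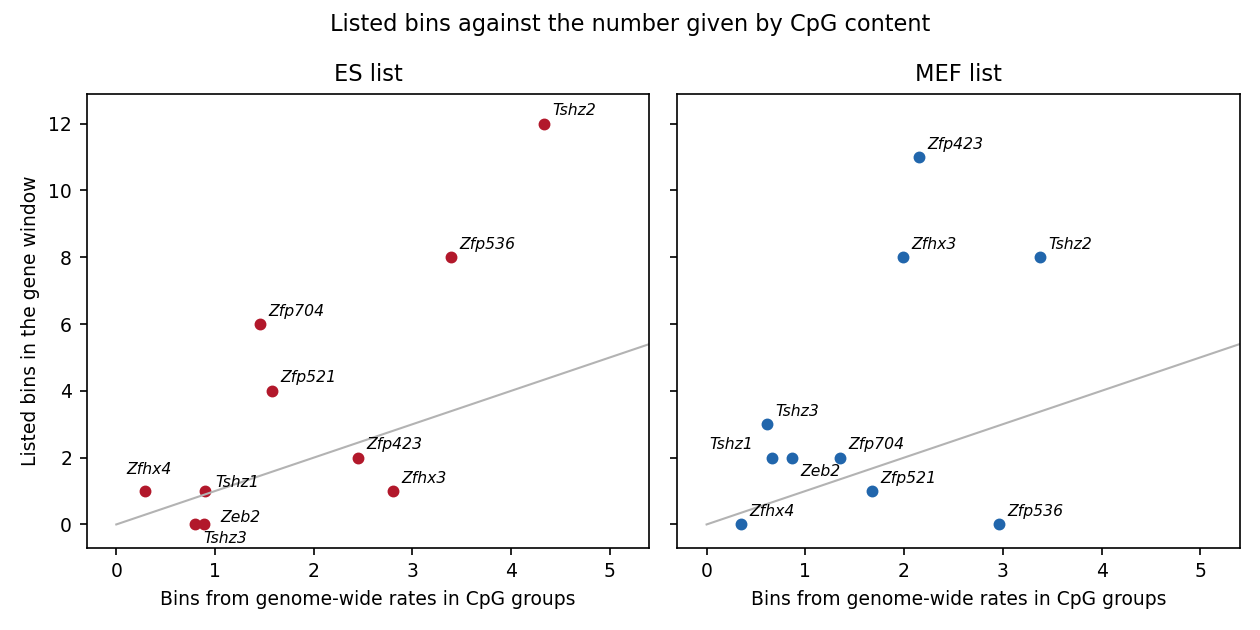
Listed bins in each gene window (vertical axis) against the number that genome-wide rates in 10 CpG groups would give (horizontal axis), ES list left in red and MEF list right in blue. The grey line marks equal numbers. Tshz2 (12 against 4.33) and Zfp704 (6 against 1.46) stand above it for the ES list, Zfp423 (11 against 2.15) and Zfhx3 (8 against 1.99) for the MEF list, and Zfp536 lies at 8 for the ES list and at 0 for the MEF list.

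Summed over these genes, which were chosen for their bins, altered bins were denser inside than beside the gene. Inside, 7.03% of bins were on the ES list [4.94% to 9.64%] and 7.43% on the MEF list [5.28% to 10.1%], against 3.21% and 2.11% of the 996 bins in flanks as long as the gene window on each side. Within single genes the ES share was lower inside than in the flanks at Tshz3, Zfp423, Zfhx3 and Zeb2, and equal at Tshz1. At the other genes it was higher inside. The MEF share was higher inside at all genes but Zfp536 and Zfhx4, which had 0 MEF bins in both places. The CpG content of the flanks was not compared. At Zfp423 the ES list had 2 bins inside (3.28%) and 6 in the flanks (4.92%), and the MEF list 11 inside and 2 in the flanks. At Zfp536 the flanks held 5 ES bins and 0 MEF bins, the same absence of MEF bins as inside. At Zfhx3 the flanks held 4 ES bins, all upstream, and 6 MEF bins. Tshz2 had 11 ES and 7 MEF bins in its flanks, most of them downstream.

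The bin on both lists and the distances between the lists' bins were counted as well. Of the 35 ES bins, 26 had a MEF bin in the same gene, at a median distance of 32.5 kb from bin start to bin start, and 2 had a MEF bin on them or touching them. The 1 bin on both lists was 1 of 35 ES bins and 1 of 37 MEF bins. Over all chromosomes 4.75% of ES bins were on the MEF list and 4.53% of MEF bins on the ES list. Those shares are above the 1.75% and 1.67% of all bins with sequence that the MEF and ES lists hold. Most bins were thus on 1 list only over the lists as a whole, and this is not particular to these genes. Joined within 10 kb, the ES bins made 24 stretches, 18 of them single bins, and the MEF bins made 22, 14 of them single bins.

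A list of 42 related zinc finger genes was set beside the 10, all found in the annotation. Of these 18 had an ES bin and 15 a MEF bin, or 42.9% and 35.7%, against 19.8% and 14.1% of all genes. The list had 0.703 ES bins and 0.85 MEF bins per 100 kb. Of the 22 that are 70 kb or longer, 14 had an ES bin and 13 a MEF bin, against 44.0% and 40.8% of all genes of that length. Zbtb7c had the most ES bins, 6, with 4 MEF bins. Zfp462, a chromatin regulator of early development, had 4 ES bins and 1 MEF bin. Glis3, a Krüppel-like factor of the pancreas and thyroid, had 3 ES bins and 13 MEF bins, and Gli2, an effector of hedgehog signalling, had 3 and 7. Zfpm1, a partner of GATA factors, had 2 ES bins and 5 MEF bins, while its relative Zfpm2 had 0 and 4. Zbtb20 also had 0 and 4. Prdm16, a factor of brown fat, and Zfp609 had 3 bins on each list, and Zfp608 had 3 ES bins and 1 MEF bin. Sall1, Sall2, Sall3, Sall4 and Zfp703, zinc finger genes of other families and all short, had 0 bins on either list. Zfp219, related to Zfp536, had 0 on either list too, and Zfhx2, related to Zfhx3 and Zfhx4, had 1 ES bin and 0 MEF bins.

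Of 18 genes taken as partners of these factors or as regulators of cell fate, 7 had an ES bin and 9 a MEF bin. For this partner list the shares were 38.9% and 50%, against 19.8% and 14.1% of all genes. Of the 10 that are 70 kb or longer, 4 had an ES bin and 7 a MEF bin, against 44.0% and 40.8% of genes of that length. Ctbp2, a corepressor that ZEB proteins recruit, had 4 ES bins and 2 MEF bins. Among EBF genes, Ebf1 and Ebf2 had 0 ES bins and 1 MEF bin each, Ebf3 had 1 and 0, and Ebf4 had 0 on either list. Smad3 and Pparg, the master regulator of fat cells, had 0 ES bins and 3 MEF bins each, and Runx2, the bone factor, had 2 and 4. Smad2 and Runx1 had 0 ES bins and 2 MEF bins each, and Smad1 had 1 on each list. Kdm1a had 2 ES bins and 0 MEF bins, and Hdac1 and Rcor1 had 1 and 0 each. Smad4, Ctbp1, Rcor2 and Hdac2 had 0 on either list.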

How the data were processed

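5hmC-bearing DNA was captured from LSH knockout and wild-type ES cells and MEFs, 1 library per group, per the series' design text. BWA and SAMtools 1.3.1 and the build mm9 are named in the submitters' processing notes, without their role. Which program called the bins, and at what threshold, is not given in the sources used here. What the authors deposited is other than a level, namely the start, end and running number of each 5 kb bin called differential.

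Genes came from GENCODE M1 on NCBIM37 (mm9): 26031 loci of type protein-coding, lincRNA or processed transcript, 1 per name. On chromosomes 1 to 19 the running numbers matched this genome for 8527 of 8527 bins (ES) and 8920 of 8920 (MEF). A bin counted for a gene on any overlap with the body or 5 kb upstream. Positions are bin midpoints from the start of the gene locus. Classes were promoter (1 kb around a transcript start), then exon, intron, intergenic. CpG rates used 10 equal groups of 511186 bins with under 50% undetermined bases. The members and lists were chosen with earlier results of these data known, and the length limit and the position comparison after seeing the counts. Of the related and partner genes, the 5 with the most bins per list, ties included, Zeb1, Zfhx2, Zfp703 and the Sall genes are named. Zfp219 and the rest of the partner genes were added after their values were seen. Counting was tested on simulated lists. No test was possible with 1 library per group. Alternatives were bin midpoint, other upstream windows, the longest coding transcript, other CpG groups and leaving out a gene. Tools were numpy 2.4.6 and pandas 2.3.3 under Python 3.11.15, scipy 1.17.1 for intervals and matplotlib 3.10.9 for figures.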

Additional observations from a re-analysis of the deposited data

How the results depend on the processing

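Of 44 alternative values for results over all 10 genes, 39 stayed within 1.5 times the count or within the counting interval. For the ES minus MEF difference, -0.0821 per 100 kb, this was judged on the shares behind it, and the difference itself moved to -0.331 along the longest coding transcript, -0.301 without Tshz2 and -0.0419 with no upstream window. Leaving out Tshz2 took the ES bins to 23 and the bins on both lists to 0. Leaving out Zfp423 turned the ES minus MEF difference to 0.328 per 100 kb. Both follow from 1 gene holding many bins. Counting touching bins as shared gave 2 shared bins. The ES exon share at the bin midpoint was 2.86%. Of 80 counts for single genes, 78 stayed within 1.5 times. The others were Tshz2 (7 ES bins along its longest coding transcript) and Zfhx3 (2 ES bins with 20 kb upstream). The CpG rates within the own chromosome or within GC groups, and the positions along the coding transcript, without exon bins or without Tshz2 for the MEF list, were chosen after seeing the data. No paired analysis was possible because each group has 1 library. No stricter threshold could be tried, since the lists hold no score, and the unknown depth means that an unlisted bin is not shown to be unaltered.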

Other observations

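Tshz3 and Zfp536 are neighbours on chromosome 7, with 545.2 kb and 0 annotated genes of the 3 types between them. The 108 bins of this interval held 2 ES bins and 1 MEF bin. The ES list thus had 0 bins in Tshz3, 2 in the interval and 8 in Zfp536, and the MEF list had 3, 1 and 0. These counts come from 17, 108 and 92 bins and are not densities. On chromosome 7 as a whole, 1.73% of bins were on the ES list and 1.07% on the MEF list. At Tshz3 the CpG-based number of ES bins was only 0.793, so 0 there says little. Whether the counts change in steps along the chromosome was not tested.

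By the distance between pairs of ES and MEF densities, over 2523 other genes of 100 kb or more, the genes most like Zfp423 were Arhgap22 (1 ES bin and 6 MEF bins) and Ank (1 and 5). Those most like Zfhx3 were Srgap3 (1 and 7) and Stard13 (1 and 6). Most like Zfp704 were Tacc2 (6 and 2) and Fkbp5 (4 and 1). Most like Tshz2 were Rasa3 and Prkcz, each with 3 ES bins and 2 MEF bins. Most like Zfp536 were Lace1 (3 and 0) and Ajap1 (2 and 0), both shorter and with fewer bins.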
